A study of Mus musculus with 20 samples.

Results

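Interferon-stimulated genes were analyzed in the apex of the mouse heart, where RNA sequencing had been performed on 20 animals of a model of cardiac immunoglobulin light chain (AL) amyloidosis. The set held 49 genes, taken by symbol from a table of 25308 gene entries with estimated counts. All 49 symbols were present, on 52 entries, because Ifi47 has 3 entries and Irgm1 has 2; for these the entry with the most reads was used. All 49 genes passed the filter on low counts, which kept 15032 entries.

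The AL group held 9 λS-DH mice with amyloid deposits, the LS group 4 λS-DH mice without deposits, and the Ctrl group 7 DH mice. All mice were on the DH-LMP2A background, which lacks immunoglobulin heavy chains and in which the viral protein LMP2A drives B cells towards plasma cells. The λS-DH mice also carry the cDNA of a human λ light chain in the kappa locus, so that their plasma cells secrete free light chains, and were derived from a 129 embryonic stem cell line injected into C57BL/6 blastocysts and crossed with a CMV-Cre deleter. Per the study's methods, deposition was induced in adults by intravenous injection of fibril seeds or of the soluble variable domain, and both sexes were used. Which AL mouse received which inducer, and each mouse's age, sex and amyloid load, were not used here, because the labels do not give them. The first sequencing run held 15 mice (AL1 to AL7, LS1 to LS4 and Ctrl1 to Ctrl4), and the second run 5 mice (AL8, AL9 and Ctrl5 to Ctrl7). The groups were compared within each run, because the runs hold different mice at different depths, and mouse, run and depth cannot be told apart. The LS mice had not been induced, so that AL differs from LS in the injection as well as in the deposits. AL differs from Ctrl in the light chain gene as well. The study does not say whether the sequenced Ctrl mice were injected.

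Interferons are secreted when nucleic acid sensors such as RIG-I, MDA5, cGAS or Toll-like receptors detect viral or misplaced cellular RNA or DNA. Type I and type III interferons signal through JAK kinases to a complex that holds STAT2 and IRF9 and binds the interferon-stimulated response element (ISRE) in the promoters of its target genes, while interferon gamma acts mainly through the gamma-activated site (GAS). The target genes include IRF7, which amplifies the response, enzymes that block the translation or copying of foreign RNA, the ubiquitin-like protein ISG15, and large GTPases that attack the membranes around intracellular pathogens. In the heart, macrophages, endothelial cells, fibroblasts and cardiomyocytes can all express such genes. In bulk tissue, a change in the number of expressing cells and a change in the RNA made per cell cannot be told apart.

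Several members lie in clusters of related genes (GRCm38). The 4 Ifit genes lie on chromosome 19 (34550694 to 34650009), Oas1a, Oas1g, Oas2 and Oas3 on chromosome 5 (120730333 to 120907521), and the 4 Gbp genes on chromosome 3 (142493978 to 142638008). Igtp and Irgm2 lie on chromosome 11 and overlap by 7974 bases on the same strand in the annotation. Reads of Ifit3 and Ifit3b, of Oas1a and Oas1g, and of Igtp and Irgm2 can be shared between near-identical or overlapping copies, so the division of reads within each pair is uncertain. The ISRE core, searched as GAAA, any 2 bases and GAAA on both strands from 250 bases before to 50 bases after the RefSeq start sites (GRCm38.p6), occurred in 22 of the 39 members with a promoter in the reference table (56.4%), against 3.99% of 27025 genes with a promoter there (3.44% of 32851 promoters). The GAS core, TTC, any 3 bases and GAA, occurred in 12 of the 39 (30.8%), against 9.55% of these genes (8.30% of promoters). The 2 searches can match overlapping bases, and a match describes letters, not binding.

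The stretches around the ISRE are shown for members of different families and directions, each on the strand of its gene, with the matched letters in capitals (a core on the opposite strand reads TTTC, any 2 bases and TTTC). By the thresholds given below, Isg15, Ifit3, Ifit3b, Oas1a and Gbp3 were called higher in AL than in both other groups of the first run. Igtp and Irgm2 were not called.
Isg15 (chr4:156200863-156200908, minus strand): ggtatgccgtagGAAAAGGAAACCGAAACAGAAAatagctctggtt
Ifit3 (chr19:34583395-34583428, plus strand): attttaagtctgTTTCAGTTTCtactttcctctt
Ifit3b (chr19:34607791-34607824, plus strand): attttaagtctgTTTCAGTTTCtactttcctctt
Oas1a (chr5:120907526-120907557, minus strand): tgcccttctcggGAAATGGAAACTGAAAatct
Gbp3 (chr3:142559987-142560026, plus strand): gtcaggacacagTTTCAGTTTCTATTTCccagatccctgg
Igtp (chr11:58199510-58199543, plus strand): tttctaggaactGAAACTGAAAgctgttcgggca
Irgm2 (chr11:58214901-58214934, plus strand): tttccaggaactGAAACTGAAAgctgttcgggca
Isg15 held 3 overlapping matches in this stretch, and Oas1a and Gbp3 held 2 each. The stretches of Ifit3 and Ifit3b did not differ in any of 34 bases, and those of Igtp and Irgm2 differed in 1 of 34. In the window searched, the letters of the ISRE core were not found for Irf7. Of the 22 members with the ISRE letters, 14 were called higher in AL than in Ctrl of the first run, with a median log2 fold change (log2FC) of 0.84, and of the 17 with a promoter but without these letters, 12 were called, with a median of 0.93.

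Total counts lay between 43993277 and 62668146 per mouse in the first run, and between 7867642 and 11794615 in the second run, so that low genes are less precise in the second. A count of 3, taken as the floor of detection, was worth 0.0475 to 0.0749 CPM (counts per 1000000) in the first run and 0.230 to 0.354 in the second, and covers counting error only. Mitochondrial genes took 18.3 to 37.1% of counts. The summed cardiomyocyte markers (Myh6, Actc1, Tnnt2, Tnni3, Myl2 and Ryr2) lay between 39783 and 67424 CPM in all mice. All levels below are CPM scaled by the TMM factors of edgeR, and SD is between mice.

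In the first run, the interferon-stimulated genes were higher in AL hearts than in both groups without deposits. A gene was called at a Benjamini-Hochberg adjusted p (FDR) under 0.05, from edgeR's quasi-likelihood test over all 15032 genes, and a log2FC of 0.58 or more in size, which is 1.5-fold. Against Ctrl, 33 of 49 members were called higher and 0 lower, where 2.85% of all genes tested were called higher and 3.74% lower. The median log2FC of the members was 0.93, against 0.01 for all genes, and single values ranged from -0.98 for Igtp to 2.10 for Oasl1. Against LS, 38 of 49 members were called higher and 0 lower, where 6.26% of all genes were called higher and 3.46% lower, and the median log2FC was 1.18. In 24 members, every AL mouse was above every Ctrl mouse of the first run (5.48% of all genes), and in 36 members, every AL mouse was above every LS mouse (8.58% of all genes). The AL mice of these comparisons are the same animals, so that the comparisons are not independent.

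The AL mice of the first run differed in level but not in direction. Relative to the mean of the 4 Ctrl mice of that run, the median log2 difference over the 49 members was 1.37 in AL1, 1.05 in AL2, 0.60 in AL3, 0.81 in AL4, 0.68 in AL5, 1.33 in AL6 and 0.85 in AL7. AL1 had the highest level of the 7 in 21 members and AL6 in 19, whereas AL5 had the lowest in 21 and AL3 in 16. The same measure was -0.66, 0.22, -0.06 and -0.53 in LS1 to LS4. The Ctrl mice were unequal, with 0.61 in Ctrl1 (just above AL3), -0.09 in Ctrl2, -0.15 in Ctrl3 and -0.47 in Ctrl4. Ctrl1 had the highest level of the 4 in 47 of 49 members and Ctrl4 the lowest in 38. Without Ctrl1, 36 members were called higher in AL than in Ctrl, and without Ctrl4, 26.

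**Figure D1:**
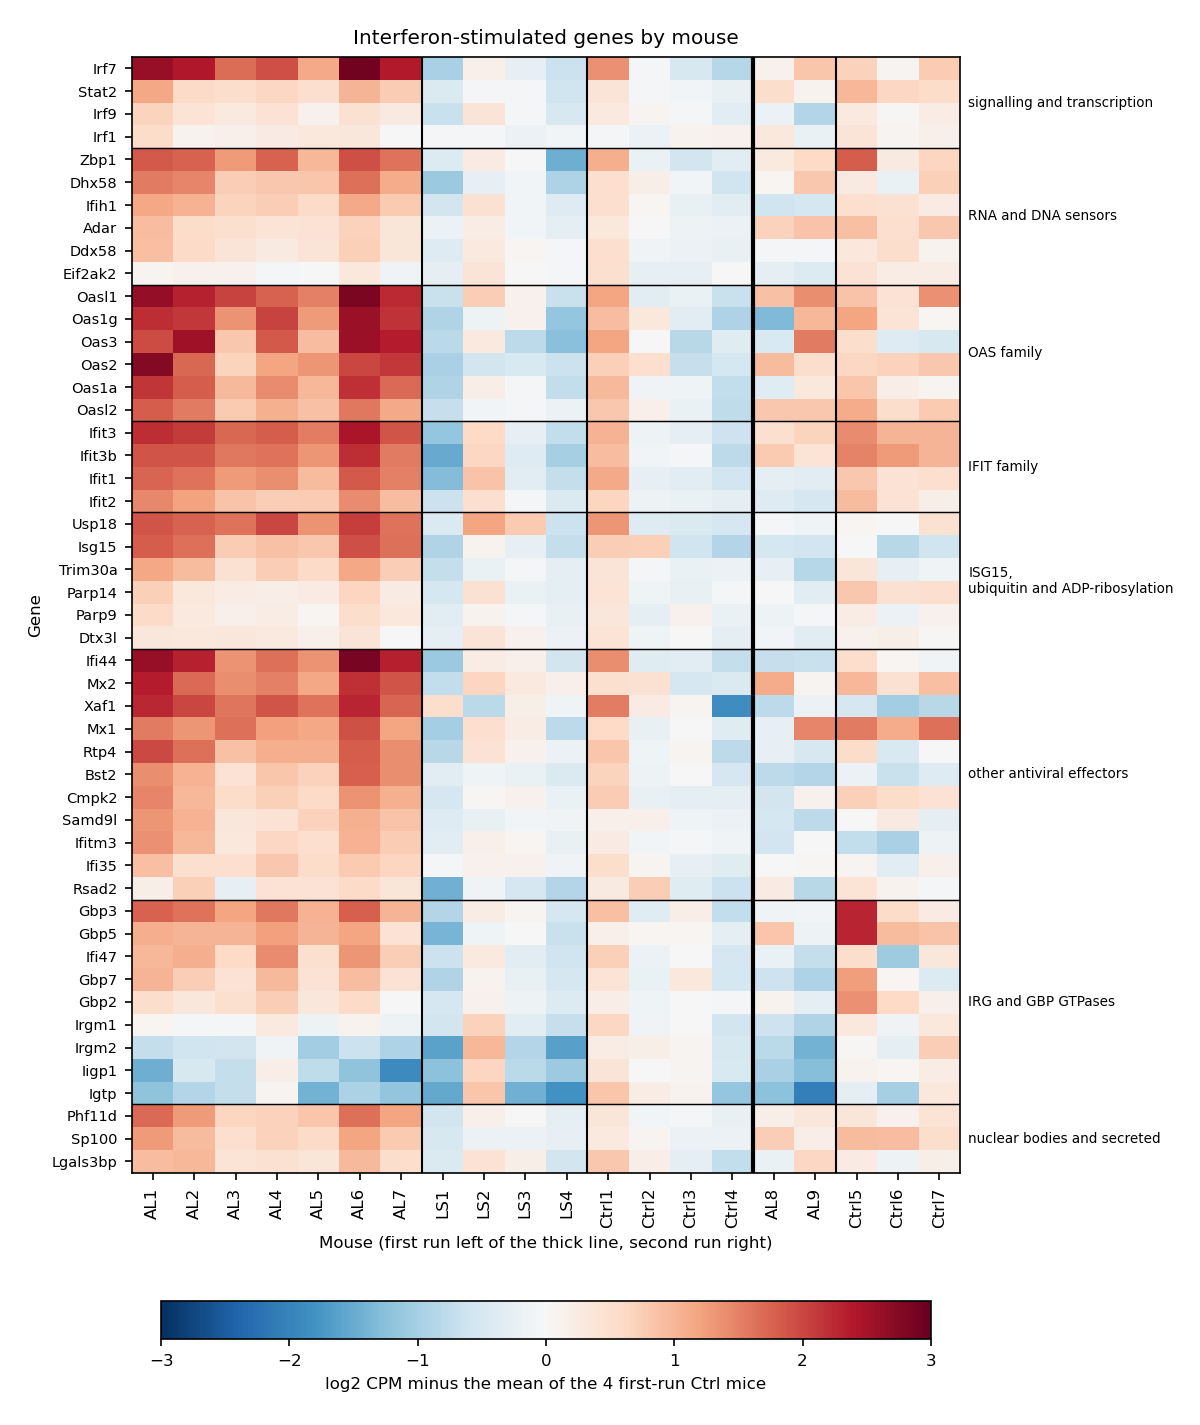
Heat map of the 49 interferon-stimulated genes (rows, ordered by role) in the 20 mice (columns), colored by log2 CPM minus the mean of the 4 Ctrl mice of the first run; the thick line parts the runs. Most rows are red in AL1 to AL7 and pale or blue in LS1, LS3, LS4, Ctrl2 to Ctrl4, AL8 and AL9. In LS2, Ctrl1 and Ctrl5 to Ctrl7, most rows are also above the reference. Irgm2, Iigp1 and Igtp are blue in most AL mice and in LS1, LS3 and LS4.

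Among the signalling and transcription genes, 2 of 4 were called higher in AL than in Ctrl and the same number against LS. Irf7, the transcription factor that amplifies interferon production, had 22.3, 53.1 and 74.8 CPM as the lowest, median and highest of the 7 AL mice. It had 5.14, 11.2, 8.52 and 6.43 CPM in LS1 to LS4 and 26.2, 9.77, 7.22 and 5.58 CPM in Ctrl1 to Ctrl4. All AL mice were above all LS mice, and 6 of 7 were above Ctrl1, the highest control. Its log2FC was 1.98 ± 0.398 (SE) against Ctrl (FDR = 0.00379) and 2.62 ± 0.41 against LS (FDR = 0.000607). The study had named Irf7 from these same samples, so its direction is not independent evidence. Stat2, a subunit of the complex that binds the ISRE, lay between 20.4 and 32.4 CPM in AL mice, at 10.7, 13.9, 13.9 and 9.54 CPM in LS1 to LS4 and at 18.8, 13.8, 13.6 and 12.4 CPM in Ctrl1 to Ctrl4. The AL mice overlapped neither group, with a log2FC of 0.74 ± 0.16 against Ctrl (FDR = 0.00523) and 1.03 ± 0.16 against LS (FDR = 0.000607). Irf9, its DNA-binding partner, and Irf1, a transcription factor downstream of both interferon types, were not called, with log2FC of 0.37 ± 0.17 and 0.24 ± 0.11 against Ctrl.

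Of the 6 sensors of foreign nucleic acid and enzymes acting on it, 3 were called higher against Ctrl and 4 against LS. Ifih1, which encodes the RNA sensor MDA5, had 16.3, 18.9 and 24.4 CPM as the lowest, median and highest AL values, against 7.48, 15.1, 10.3 and 8.32 in LS1 to LS4 and 15.7, 11.4, 9.37 and 8.66 in Ctrl1 to Ctrl4. No AL mouse overlapped either group, and the log2FC was 0.85 ± 0.19 against Ctrl (FDR = 0.00579). Dhx58, which encodes LGP2, a regulator of RIG-I and MDA5, and Zbp1, a sensor of left-handed nucleic acid, rose by a log2FC of 1.18 ± 0.29 and 1.51 ± 0.37 (FDR = 0.00978 and 0.0112). Adar, which edits double-stranded RNA, passed the FDR threshold against Ctrl (0.00822) at a log2FC of 0.55 ± 0.13, below the minimum size, and was called against LS at 0.63 ± 0.13. Ddx58, which encodes RIG-I, was below the minimum size too, at 0.496 ± 0.16 (FDR = 0.0356). Eif2ak2, the kinase PKR that halts translation, lay at 20.1 to 26.7 CPM in AL mice, 17.6 to 28.02 in LS and 18.3 to 30.2 in Ctrl. The AL range lay within both others, and the log2FC was 0.04 ± 0.13 against Ctrl and 0.04 ± 0.13 against LS.

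All 6 members of the OAS family, enzymes and enzyme-like proteins that respond to double-stranded RNA, were called higher against both groups. The largest log2FC of the set against Ctrl was that of Oasl1, a member without synthetase activity, which had 2.95, 4.96 and 7.46 CPM as the lowest, median and highest AL values. It had 0.616, 1.73, 1.103 and 0.618 CPM in LS1 to LS4 and 2.37, 0.8002, 0.874 and 0.611 CPM in Ctrl1 to Ctrl4. The AL mice overlapped neither group, and the log2FC was 2.096 ± 0.39 against Ctrl (FDR = 0.002596). Oas2 reached 17.8, 36.7 and 75.3 CPM (lowest, median and highest), against 5.61, 7.51, 8.11 and 7.05 in LS1 to LS4 and 18.3, 15.8, 6.79 and 7.64 in Ctrl1 to Ctrl4. The lowest AL mouse, AL3, was below Ctrl1, and the log2FC was 1.69 ± 0.34 against Ctrl (FDR = 0.00378) and 2.48 ± 0.36 against LS (FDR = 0.000408). Oas3 had the largest log2FC against LS, 2.64 ± 0.51 (FDR = 0.00188), at only 1.201 to 4.16 CPM in AL mice and 0.251 to 0.822 in LS. Oas1a and Oas1g were at 6.696 to 15.6 and 1.696 to 4.28 CPM in AL mice and at 2.02 to 6.65 and 0.326 to 1.31 in Ctrl, without overlap. Oasl2 had a log2FC of 1.202 ± 0.25 against Ctrl (FDR = 0.00466).

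All 4 IFIT genes, whose products bind foreign RNA ends and block translation, were called higher against both groups. Ifit3 had the lowest FDR of the set against Ctrl, with 29.8, 37.9 and 56.4 CPM as the lowest, median and highest AL values. It had 4.55, 15.5, 8.66 and 6.08 CPM in LS1 to LS4 and 21.02, 9.203, 8.44 and 6.62 CPM in Ctrl1 to Ctrl4. Every AL mouse was above every other mouse of the run, with a log2FC of 1.85 ± 0.32 against Ctrl (FDR = 0.00182) and 2.23 ± 0.33 against LS (FDR = 0.000478). Ifit3b, its near copy, had 9.06, 11.2 and 16.8 CPM in AL mice (lowest, median and highest) and a log2FC of 1.63 ± 0.35 against Ctrl (FDR = 0.00494). Ifit1 and Ifit2 had log2FC of 1.33 ± 0.36 and 1.03 ± 0.23 against Ctrl (FDR = 0.0165 and 0.00662). For Ifit1, the control Ctrl1 stood at 17.4 CPM, within the AL range of 15.1 to 28.3 CPM, while Ctrl2 to Ctrl4 were at 5.26 to 6.57.

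In the group of ISG15, ubiquitin and ADP-ribosylation genes, 3 of 6 were called higher against each group. Isg15, a ubiquitin-like protein conjugated to other proteins, had 7.36, 13.6 and 16.6 CPM in AL mice (lowest, median and highest), 2.27, 4.62, 3.62 and 2.61 in LS1 to LS4 and 7.27, 7.13, 2.85 and 2.32 in Ctrl1 to Ctrl4. The AL and Ctrl ranges nearly met, since AL3 at 7.36 CPM was just above Ctrl1 at 7.27 and Ctrl2 at 7.13. The log2FC was 1.26 ± 0.33 against Ctrl (FDR = 0.0163) and 1.84 ± 0.35 against LS (FDR = 0.00154). Usp18, the protease that removes ISG15 and restrains receptor signalling, had 8.92 to 14.7 CPM in AL mice and 8.74, 2.65, 2.55 and 2.44 in Ctrl1 to Ctrl4 (log2FC 1.56 ± 0.37, FDR = 0.00917). Trim30a had 17.5 to 28.9 CPM in AL mice and 11.2 to 16.9 in Ctrl (log2FC 0.83 ± 0.17, FDR = 0.00474). The neighbors Parp9, Dtx3l and Parp14, which act together in ADP-ribosylation and ubiquitination, were not called, with log2FC of 0.295 ± 0.13, 0.25 ± 0.13 and 0.36 ± 0.17 against Ctrl. Dtx3l and Parp9 overlap by 682 bases on opposite strands, and the libraries were stranded.

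Of the 11 other antiviral effectors, 10 were called higher against Ctrl and 11 against LS. Ifi44 had 11.3, 21.9 and 31.7 CPM in AL mice (lowest, median and highest), 2.01, 5.17, 4.86 and 2.99 in LS1 to LS4 and 11.7, 3.37, 3.52 and 2.65 in Ctrl1 to Ctrl4. Ctrl1 fell within the AL range, and the log2FC was 1.91 ± 0.41 against Ctrl (FDR = 0.005302). Mx2 and Mx1, dynamin-like GTPases that trap viral components, had log2FC of 1.75 ± 0.31 and 1.49 ± 0.35 (FDR = 0.00194 and 0.00814), with Mx1 at no more than 1.75 CPM in any mouse. Bst2, which tethers budding virus to the cell surface, lay at 21.5, 32.7 and 55.5 CPM in AL mice (lowest, median and highest), at 12.8, 14.6, 13.97 and 11.8 CPM in LS1 to LS4 and at 25.2, 14.3, 16.1 and 11.2 CPM in Ctrl1 to Ctrl4. Its log2FC was 1.09 ± 0.23 against Ctrl (FDR = 0.00519) and 1.41 ± 0.24 against LS (FDR = 0.000767). Xaf1, Rtp4, Cmpk2, Samd9l, Ifitm3 and Ifi35 were called at log2FC between 0.63 (Ifi35) and 1.51 (Xaf1). Ifitm3, which hinders the entry of viruses through membranes, lay at 54.8 to 114 CPM in AL mice and 40.5 to 52.4 in Ctrl without overlap; per kilobase of merged exons it had the highest level of the 49 in AL mice of the first run. Samd9l lay at 36.9 to 73.5 CPM in AL mice and 26.1 to 32.6 in Ctrl, also without overlap (log2FC 0.85 ± 0.16, FDR = 0.00281). Rsad2, which encodes viperin, an enzyme making a chain-terminating nucleotide, was not called against Ctrl. It stood at 15.4 to 29.6 CPM in AL mice and 21.9, 30.3, 14.1 and 11.6 CPM in Ctrl1 to Ctrl4, where Ctrl2 was above all AL mice, with a log2FC of 0.27 ± 0.26 (FDR = 0.514). Against LS, at 6.68, 16.7, 12.7 and 9.88 CPM, it was called with 1.03 ± 0.27 (FDR = 0.0117). Cmpk2, which shares its locus on chromosome 12 with Rsad2, had a log2FC of 0.93 ± 0.23 against Ctrl (FDR = 0.0103).

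The interferon-inducible GTPases behaved unequally. Of 9, 3 were called higher against Ctrl (Gbp3, Gbp5 and Ifi47) and 5 against LS (Gbp2, Gbp3, Gbp5, Gbp7 and Ifi47). Gbp3, a guanylate-binding protein of the chromosome 3 cluster, had 24.3, 36.01 and 42.001 CPM in AL mice (lowest, median and highest). Its levels were 6.53, 13.9, 12.7 and 8.26 in LS1 to LS4 and 22.6, 9.36, 13.7 and 7.11 in Ctrl1 to Ctrl4. All AL mice were above both groups (log2FC 1.33 ± 0.36 against Ctrl, FDR = 0.0177). Gbp5, which promotes inflammasome assembly, was at 8.71 to 15.1 CPM in AL mice and 5.32 to 7.12 in Ctrl (log2FC 1.02 ± 0.28, FDR = 0.0182). Ifi47 had a log2FC of 0.93 ± 0.29 (FDR = 0.0337). Gbp2 and Gbp7 had 0.44 ± 0.18 and 0.68 ± 0.26 against Ctrl and were not called there (FDR = 0.0992 and 0.0796).

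Igtp, Irgm2, Iigp1 and Irgm1, immunity-related GTPases that act on vacuoles holding pathogens, were the 4 members with a negative log2FC against Ctrl in the first run. They were set apart here after their values were seen, so no test of them as a group is given. Igtp had 21.5, 29.7 and 60.7 CPM in AL mice (lowest, median and highest), 19.8, 102, 21.2 and 16.3 in LS1 to LS4 and 102, 66.9, 61.5 and 25.8 in Ctrl1 to Ctrl4. LS2 and Ctrl1 to Ctrl3 were above all AL mice, whereas LS1, LS3 and LS4 were below the lowest AL mouse. Its log2FC was -0.98 ± 0.45 against Ctrl (FDR = 0.144) and -0.29 ± 0.46 against LS (FDR = 0.682). Irgm2 was also highest in LS2, with 29.04 to 55.7 CPM in AL mice, 19.6, 121, 32.4 and 19.3 in LS1 to LS4 and 69.7, 68.4, 63.3 and 43.3 in Ctrl1 to Ctrl4 (log2FC -0.66 ± 0.38 against Ctrl). Iigp1 had 30.8 to 132 CPM in AL mice, 48.98, 180.5, 65.6 and 53.7 in LS1 to LS4 and 149.7, 116, 121 and 83.3 in Ctrl1 to Ctrl4 (log2FC -0.796 ± 0.35 against Ctrl, FDR = 0.124). Irgm1 was nearly level, at 26.4 to 36.5 CPM in AL mice and 20.4 to 45.6 in Ctrl (log2FC -0.04 ± 0.22). None of the 4 was called in either direction in the fit by run. With all 20 mice in one fit and run as an additive term, Igtp (-1.09, FDR = 0.0412) and Iigp1 (-0.93, FDR = 0.0260) were called lower in AL than in Ctrl.

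Across the 15 mice of the first run, after each group's mean was removed, the log2 levels of these 4 GTPases correlated with each other with a median Pearson's r of 0.86 (6 pairs). The other 45 members had a median r of 0.75 among themselves (990 pairs), and the median between the 4 and the others was 0.50 (180 pairs). Single pairs between the 4 and the others reached 0.90, and Ifi47 had an r of 0.81 with Igtp. The 4 were picked after their levels were seen, Igtp and Irgm2 can share reads, and all values come from the same libraries. The correlations are therefore given as a description. By the same measure, the members most like Irf7 were Ifi44, Oas1a and Oasl1, and the least like it was Irf1.

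**Figure D2:**
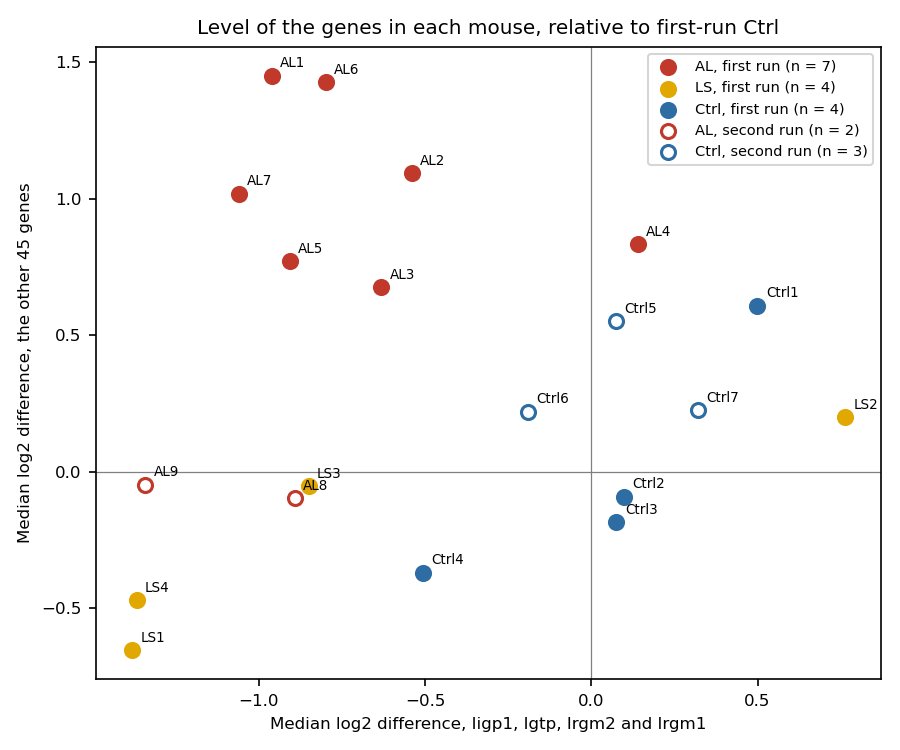
Median log2 difference from the mean of the 4 Ctrl mice of the first run, for Iigp1, Igtp, Irgm2 and Irgm1 (x axis) and for the other 45 genes (y axis), with 1 point per mouse. AL1 to AL7 lie at 0.68 to 1.45 on the y axis, above all other mice, and 6 of them lie below 0 on the x axis, while LS2 lies farthest right at 0.76. The genes of the x axis were set apart after their values were seen, so the separation on the y axis partly reflects that choice. With these genes included, the median over all members was 0.602 in AL3, below Ctrl1 at 0.609.

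The 3 members called nuclear or secreted here were Sp100, a component of nuclear bodies, Phf11d, and Lgals3bp, a secreted glycoprotein. Sp100 had the lowest FDR of the set against LS, with 28.7, 34.9 and 48.9 CPM in AL mice (lowest, median and highest), 14.4, 17.96, 17.9 and 17.1 in LS1 to LS4 and 24.8, 21.2, 17.7 and 17.7 in Ctrl1 to Ctrl4. All AL mice were above all LS and Ctrl mice, with a log2FC of 0.87 ± 0.16 against Ctrl (FDR = 0.00203) and 1.14 ± 0.16 against LS (FDR = 0.000385). Phf11d had a log2FC of 1.18 ± 0.21 against Ctrl (FDR = 0.00186). Lgals3bp was called against LS only, at 0.73 ± 0.26 (FDR = 0.0483), with 0.58 ± 0.26 against Ctrl (FDR = 0.1301).

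**Figure D3:**
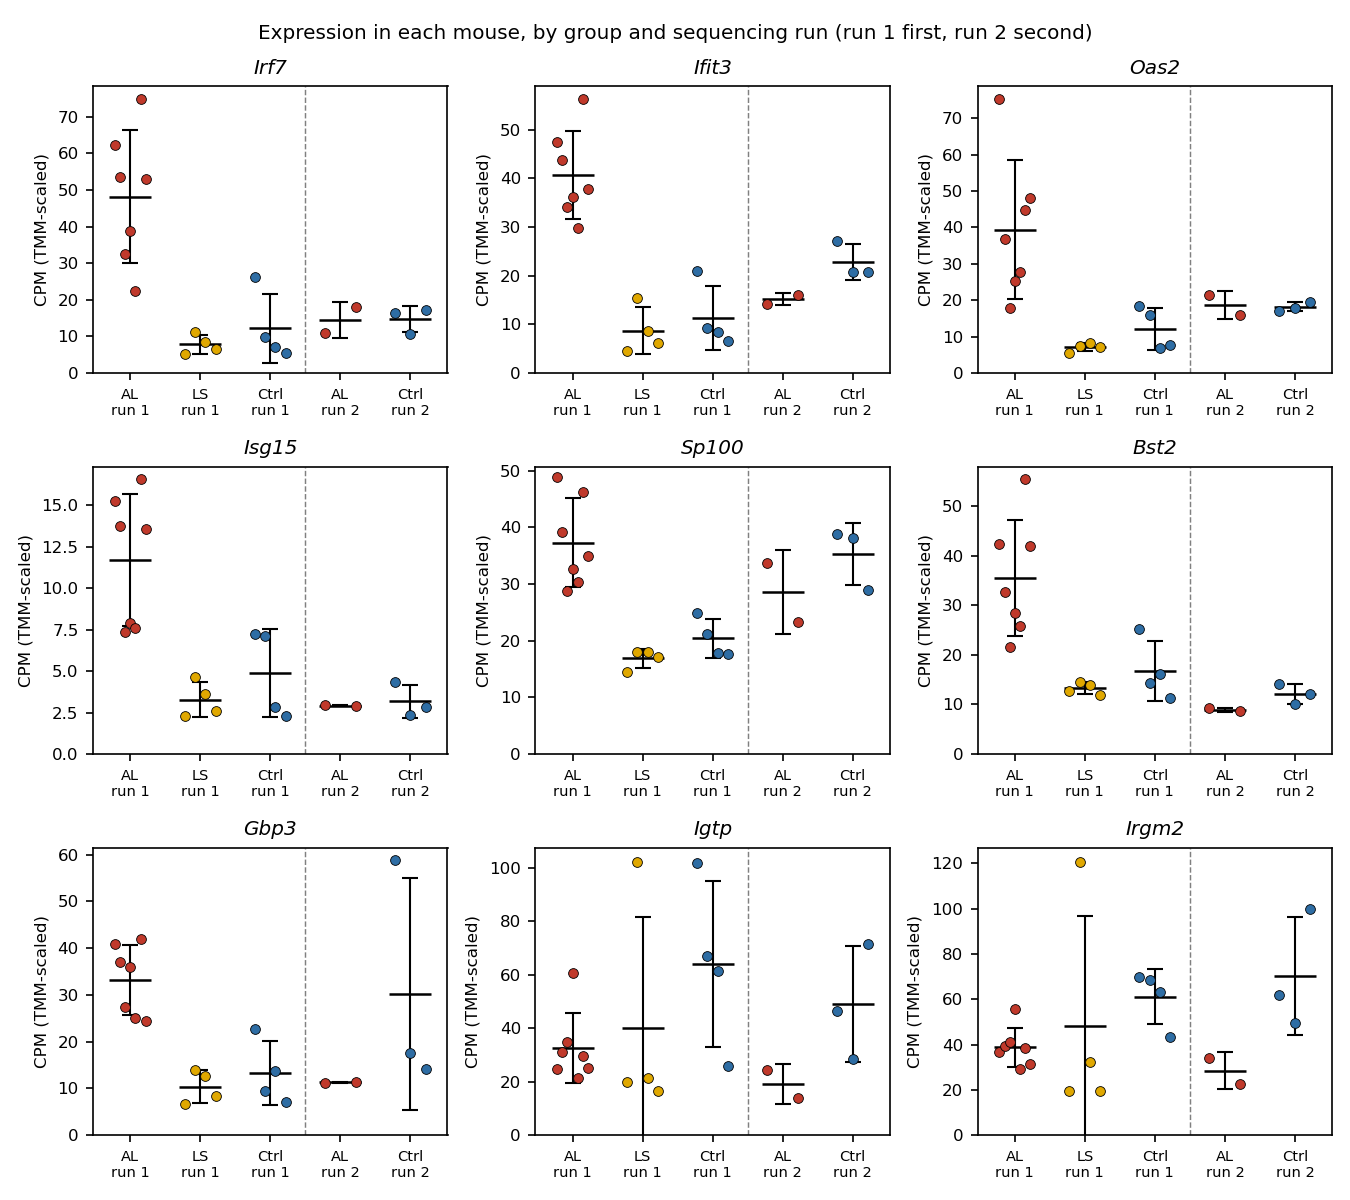
CPM of 9 members in each mouse, with group mean (bar) and SD (whiskers, cut at 0 for Igtp and Irgm2 in LS); the dashed line parts run 1 from run 2. Irf7, Ifit3, Oas2, Isg15, Sp100, Bst2 and Gbp3 are higher in AL than in LS and in most Ctrl mice of run 1 but not in run 2. The means of Igtp and Irgm2 are not higher in AL than in Ctrl of either run or in LS. The LS means include LS2, at 102 and 121 CPM, while LS1 and LS4 lie below all AL mice of run 1 in both genes.

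The comparison of LS with Ctrl asks whether the soluble light chain alone, without deposits, is accompanied by a change. No member was called (0 of 49), where 3 of 15032 genes were (0.0200%). At an unadjusted p under 0.05, 2 members passed in edgeR, where 5.07% of all genes did, and DESeq2 also called 0. The log2FC was negative in 46 of 49 members, with a median of -0.29, against 0.00 for all genes, and ranged from -0.79 (Oas3) to 0.19 (Usp18). Irf7 had a log2FC of -0.64 ± 0.42 (FDR = 0.952), and in no member did the 4 LS mice lie wholly above (2.93% of all genes) or below (2.20%) the 4 Ctrl mice. Leaving out each mouse in turn gave 0 called members each time. The median was -0.39 without LS2 and -0.0036 without Ctrl1, the control in which the members were highest.

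The 2 AL mice of the second run were not above their 3 controls in this set. No member was called higher, and 2 were called lower, Ifih1 (-0.98 ± 0.302, FDR = 0.04095) and Gbp2 (-0.87 ± 0.28, FDR = 0.0493), where calls took 4.34% (higher) and 3.85% (lower) of all genes tested. In 40 of 49 members the log2FC was negative, and the median was -0.44. In 24 members, both AL mice were below all 3 Ctrl mice, where 17.7% of all genes were, and in 0 members were they above (13.8%). Irf7 had 10.98 and 17.9 CPM in AL8 and AL9 and 16.4, 10.6 and 17.1 CPM in Ctrl5 to Ctrl7, overlapping, with a log2FC of -0.02 ± 0.59. Ifit3 had 14.3 and 16.1 CPM against 27.2, 20.7 and 20.7, and Ifih1 had 7.199 and 7.59 against 15.7, 15.1 and 13.1. In both genes the AL mice were below all controls of the run. Gbp3 had 11.2 and 11.3 CPM in the AL mice and 58.8, 17.5 and 14.2 CPM in Ctrl5 to Ctrl7, of which Ctrl5 was far above the others. Ctrl5 had the highest level of the 3 controls in 33 of 49 members. Oas1g in AL8 was at 0.236 CPM, below the floor of 3 counts. The count of 2 called members became 0 without AL9, LS3, LS4, Ctrl5 or Ctrl6, 1 without Ctrl3, Ctrl4 or any of AL1 to AL6, 4 without AL8 and 6 without LS2 or Ctrl7.

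The difference between the runs was tested as a contrast of its own, the log2FC of AL against Ctrl in the second run minus that in the first. It was negative in all 49 members, with a median of -1.37, and ranged from -2.78 (Ifi44) to -0.38 (Irf1), against a median of 0.00 for all genes. Of the 49, 7 were called lower and 0 higher, where 0.765% of all genes were called lower and 0.499% higher, and 38 had an unadjusted p under 0.05, where 16.9% of all genes did. The 7 were Ifih1 (-1.83 ± 0.36, FDR = 0.0201), Samd9l (-1.52 ± 0.298, FDR = 0.0211), Ifit2 (-2.04 ± 0.44, FDR = 0.0324), Sp100 (-1.18 ± 0.28), Trim30a (-1.39 ± 0.33), Ifit3 (-2.43 ± 0.58) and Gbp5 (-2.14 ± 0.51), the last 4 at FDR of 0.0456 to 0.0469. For Irf7 the difference was -1.997 ± 0.71 (FDR = 0.163) and was not called. The count rested on single mice. It was 0 without AL9, 2 without Ctrl3, Ctrl5 or Ctrl6, 3 without AL2, AL6, LS3, LS4, Ctrl2 or Ctrl4, 4 without AL1, AL4 or AL5, 11 without Ctrl7, 15 without Ctrl1 and 16 without AL8.

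Both groups differed between the runs. From the first to the second run, 25 of 49 members were called lower in AL mice, where 11.7% of all genes were, with a median log2FC of -1.10. In Ctrl mice, 8 members were called higher, where 6.07% of all genes were, with a median of 0.28. The 8 were Stat2, Ifit3b, Mx1, Gbp2, Gbp3, Gbp5, Adar and Sp100. Without Ctrl1 the 8 became 15 and without Ctrl5 4, and the 25 became 13 without AL8 and 11 without AL9. Bst2, for example, was at 9.205 and 8.61 CPM in AL8 and AL9, below all 7 AL mice of the first run, and at 14.03, 10.02 and 12.1 CPM in Ctrl5 to Ctrl7, within or just below the range of Ctrl1 to Ctrl4. Adar was at 23.1 and 26.01 CPM in AL8 and AL9 and 27.1, 20.3 and 25.2 CPM in Ctrl5 to Ctrl7, all above Ctrl1 to Ctrl4 at 12.8 to 17.96 CPM. Values between runs also hold any difference between the mice and in the handling and depth of the runs, which cannot be told apart here.

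**Figure D4:**
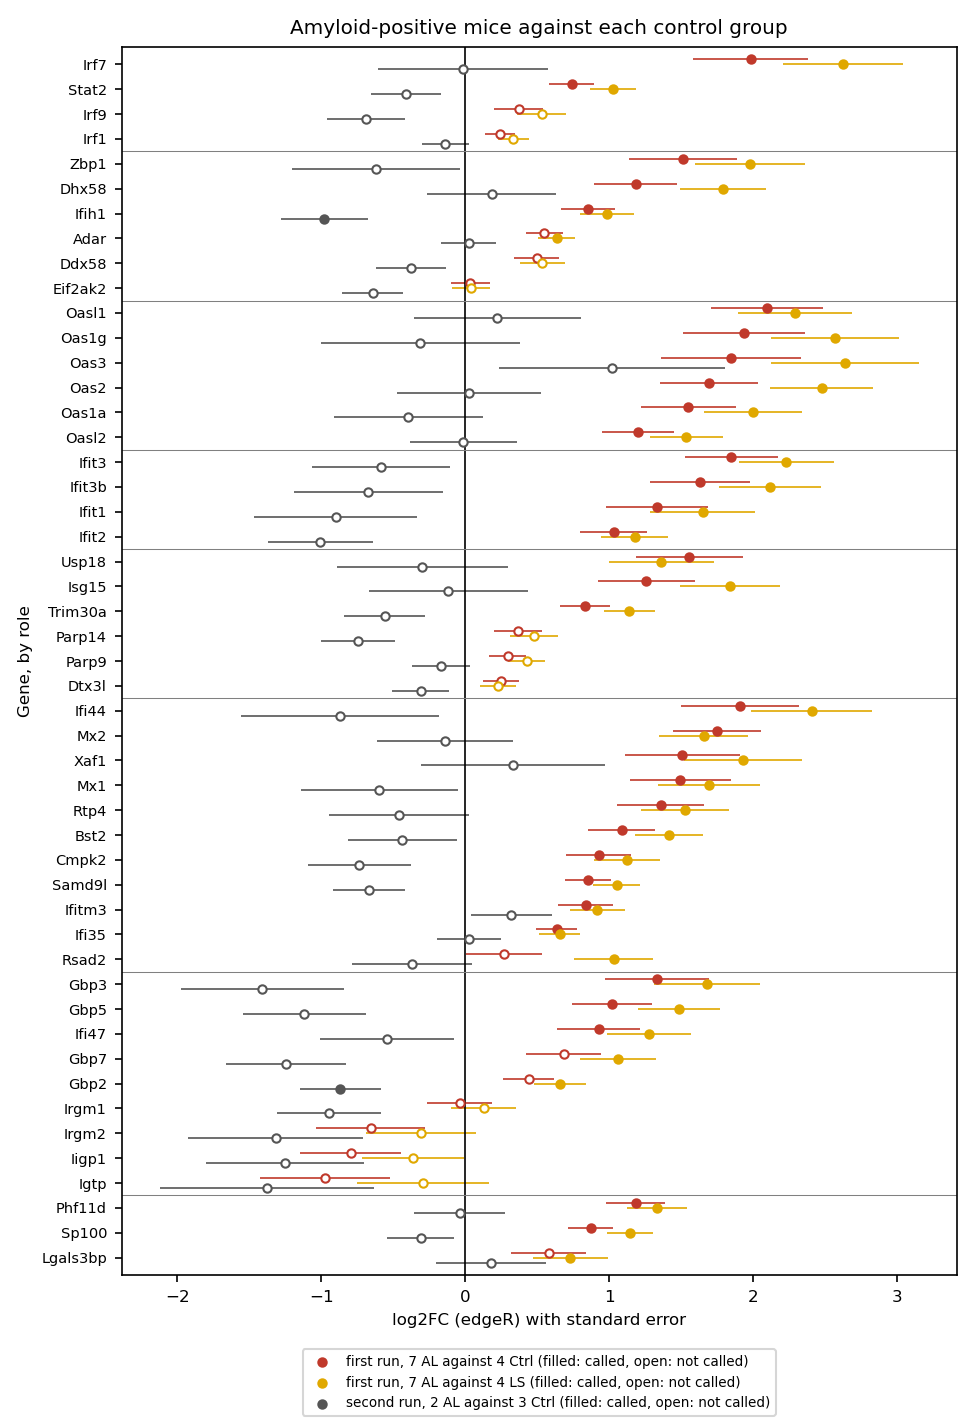
log2FC with its standard error for each of the 49 genes, for AL against Ctrl and AL against LS in the first run and AL against Ctrl in the second; filled points were called. Points of the first run lie mostly between 0.5 and 2.6, and those of the second run mostly below 0, with 2 called (Ifih1 and Gbp2).

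With all 20 mice in one fit, 17 members were called between AL and Ctrl when run was an additive term, 15 higher and 2 lower, with a median log2FC of 0.52. ComBat-seq is the adjustment named in the methods. After it, 16 were called, 13 higher and 3 lower, with a median of 0.58. Irf7 was called in both fits, at 1.44 (FDR = 0.0152) and 1.28 (FDR = 0.0165). These fits take the effect to be the same in both runs.

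Genes outside the set were counted in lists of the same pathway. Of 21 interferon genes, including Ifnb1 and Ifng, 18 had 0 counts in every mouse and none passed the filter, so that no ligand level could be compared. Among 11 interferon receptor and JAK-STAT genes, 1 was called higher in AL than in Ctrl of the first run (Ifnlr1, 0.62 ± 0.15, FDR = 0.00959), and 0 against LS. Among 18 tested sensing and adaptor genes, 0 were called higher and 1 lower against Ctrl (Tlr8, -1.08 ± 0.28, FDR = 0.0133), while the kinase gene Ikbke was called higher against LS (1.35 ± 0.30, FDR = 0.00447). Among 12 genes that restrain the response, Trex1, a nuclease that clears cytosolic DNA, was called higher against Ctrl (0.69 ± 0.14, FDR = 0.00425) and LS (0.66 ± 0.14, FDR = 0.00308), and Ptpn6, a phosphatase that dampens cytokine signaling, against LS (0.74 ± 0.19, FDR = 0.0111). Of 57 other interferon-response genes tested, 15 were called higher and 2 lower against Ctrl, with a median log2FC of 0.49, and 30 higher and 3 lower against LS, with a median of 0.77. Those of lowest FDR against Ctrl were Mndal (0.97 ± 0.18), Sp110 (0.85 ± 0.16), Ly6e (0.81 ± 0.16), Ifi27 (1.23 ± 0.26), Ifi213 (2.03 ± 0.45) and Ifi27l2a (1.74 ± 0.38). Of 13 tested targets of interferon gamma, such as the antigen-processing genes and the chemokines Cxcl9 to Cxcl11, 0 were called against Ctrl, with a median of 0.24, and 1 against LS (Psmb8, 0.84 ± 0.21, FDR = 0.00830). In the second run, 2 of these 13 were called lower in AL (Nlrc5, -1.71 ± 0.50, and Cxcl9, -1.66 ± 0.53), and 1 of the 57 other response genes was called higher and 4 lower. In the same run, Ikbke (1.53 ± 0.43), Ticam1 (0.58 ± 0.17) and Myd88 (0.58 ± 0.18) of the 18 sensing and adaptor genes and Ptpn6 (0.95 ± 0.29) and Rnaseh2c (1.33 ± 0.42) of the 12 restraining genes were called higher, and the receptor kinase gene Jak1 was called lower (-0.66 ± 0.15).

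Markers of other cells moved with the groups. In the first run, 7 of 8 hepatocyte markers (Alb, Ttr and others) were called lower in AL than in Ctrl and the same number against LS. Their summed level was 1.96 to 36.9 CPM in AL1 to AL7, 7.02 to 177 in LS1 to LS4 and 41.6 to 291 in Ctrl1 to Ctrl4, without overlap between AL and Ctrl, and 2.35 to 6.14 in all 5 mice of the second run. With their mean log2 level as a covariate, 1 member (Bst2) was still called against Ctrl, although the median log2FC was 1.02, and 34 were called against LS. LS2 and LS4, whose summed hepatocyte levels of 7.02 and 18.5 CPM were within the AL range, had median member differences of 0.22 and -0.53. Of 5 recruited monocyte markers, 2 were called higher (Ccr2 and Plac8) and 1 lower (Ly6c2) against Ctrl, and 4 higher against LS. Their summed level was 8.03 to 16.1 CPM in AL mice, 2.60 to 4.07 in LS and 4.27 to 11.3 in Ctrl of the first run, and 11.1 and 16.3 in AL8 and AL9. Of 8 macrophage markers, 0 were called in any comparison of AL in either run, and of the B, T and NK cell markers 0 were called against Ctrl in either run. Of the dendritic and plasma cell lists, 1 gene was called against Ctrl in the first run (Jchain, -3.01 ± 0.54), and against LS Pacsin1 (1.19 ± 0.38), Xcr1 (1.73 ± 0.54), Jchain (-1.54 ± 0.55) and the B cell gene Cd22 (1.92 ± 0.64) were. Siglech, which marks plasmacytoid dendritic cells, the cells known for secreting type I interferon, was at or below 1.199 CPM in every mouse. In the second run, 4 of 5 neutrophil markers were called higher in AL, with sums of 21.2 to 31.98 CPM in AL8 and AL9 and 1.77 to 4.90 in Ctrl5 to Ctrl7, against 2.54 to 10.1 in AL1 to AL7. No cardiomyocyte, endothelial or fibroblast marker was called in the first run (0 of 16 in all). The summed cardiomyocyte level was 39783 to 49851 CPM in AL1 to AL7, 52093 to 58052 CPM in LS1 to LS4 and 49486.9 to 54422.5 CPM in Ctrl1 to Ctrl4. By this sum, AL lay wholly below LS but overlapped Ctrl. In the second run, the endothelial gene Tek was called lower in AL (-0.89 ± 0.17), as was the plasma cell gene Mzb1, at 0 in both AL mice. The monocyte gene Chil3, at 0 in Ctrl5 to Ctrl7, Pacsin1 (1.97 ± 0.56), the plasma cell gene Sdc1 (1.43 ± 0.37) and the fibroblast gene Col1a1 (3.22 ± 0.68) were called higher. Col1a1 was at 688 CPM in AL9 but 28.9 in AL8, within the range of Ctrl5 to Ctrl7 (25.5 to 52.9). AL8 and AL9 also differed in summed fibroblast markers (293 and 1355 CPM, against 423 to 683 in Ctrl5 to Ctrl7) and macrophage markers (97.9 and 447 CPM, against 127 to 181). The part of these cells in the results for the interferon-stimulated genes was not tested.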

How the data were processed

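The study sequenced stranded paired-end libraries of apical heart RNA (20 mice) in 2 runs. Per its methods, the authors aligned reads to GRCm38 with STAR and deposited Salmon estimated counts per gene, without normalization; 14.2% of values were not whole, and all were rounded. Mice were matched to groups and runs by their labels. Counts were scaled by TMM and tested with the quasi-likelihood test of edgeR 4.0.16 (R 4.3.3) in a model with a mean for each of the 5 group-and-run cells, after filterByExpr (minimum count 10), with Benjamini-Hochberg adjustment over 15032 genes; the model replaces the study's ComBat-seq adjustment, which was an alternative. Tests are two-sided. All mice share 1 estimate of the spread, which carries the test in the second run. SE was derived from the F statistic. On simulated counts, 87% of 200 changed genes were recovered for AL against Ctrl in the first run, with 3 false calls among 177. Of those changed by a log2FC of 0.8 in size, 66.2% were recovered. For the difference between the runs, 61.5% of the 200 were recovered. No gene was changed in the second run, so recovery there was not measured. DESeq2 1.42.0 and sva 3.50.0 served alternatives. Members called in any comparison are named, with full values for those of lowest FDR by role, Irf7 and members with an outlying mouse. The members and lists were chosen with earlier results of these data known. Library correlations lay between 0.965 and 0.991, with 0 identical pairs. Promoters are from RefSeq (GRCm38.p6), loci from GENCODE M21.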

Additional observations from a re-analysis of the deposited data

Results flagged for a closer look

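Within groups of the first run, a single mouse stood apart from its group in 14 of 147 gene-and-group combinations, by the ratio of its gap to the group's range; chance alone flags about 1 in 20. Ctrl1 was the outlying mouse in 9 of them, always as the highest of 4: 17.4 CPM for Ifit1, 25.4 for Ifit2, 11.7 for Ifi44, 2.37 for Oasl1, 8.74 for Usp18, 20.3 for Ddx58, 2.28 for Zbp1, 11.5 for Cmpk2 and 52.4 for Ifitm3. LS2 was the highest of the 4 LS mice for 3 immunity-related GTPases, with 102 CPM for Igtp, 121 for Irgm2 and 180.5 for Iigp1, where the next LS mouse had 21.2, 32.4 and 65.6. Among AL mice, AL4 was highest for Igtp with 60.7 CPM, where the next had 34.9, and AL7 was lowest for Gbp5 with 8.71 CPM, where the next had 13.0. On the log2 CPM scale, 6 of the 147 combinations were flagged, so the share exceeds about 1 in 20 on the CPM scale only. The genes vary together, so that the flags are not independent.

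The effect of AL against Ctrl was called different between the runs, by the tested contrast, for 7 members. As log2FC of the second run minus the first, they were Ifih1 (-1.83), Samd9l (-1.52), Ifit2 (-2.04), Sp100 (-1.18), Trim30a (-1.39), Ifit3 (-2.43) and Gbp5 (-2.14). The count rested on single mice, with 0 members called without AL9 and 16 without AL8. The runs hold different mice at different depths, and mouse, run and depth cannot be told apart.

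Reads also fell on the entries not used for 2 members. The other entry of Irgm1 held 25.6 estimated counts in AL8 and 0 in every other mouse, while the entry used held 164 in AL8. In Ctrl6, 1 of the other entries of Ifi47 held 17.4 estimated counts and the entry used 15.6, so the Ifi47 level of that mouse is understated.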

How the results depend on the processing

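Alternatives changed 1 setting at a time. For AL against LS and for LS against Ctrl in the first run, no alternative moved the number of members called by over 1.5 times (28 to 43 against 38, and 0 each time). For AL against Ctrl in the first run, 33 members were called; the hepatocyte covariate gave 1, the additive run term 17 and ComBat-seq 16, and the others 30 to 35. For AL against Ctrl in the second run, 2 members were called; no filter, RLE factors, the Xist covariate and the hepatocyte covariate gave 1 each, DESeq2 9, and a fit of that run alone 0. For the difference between the runs, 7 were called; no filter gave 4, the hepatocyte covariate 0 and DESeq2 24. For Ctrl between the runs, 8 were called, and 0 with the hepatocyte covariate. The cause was not tested. Fits without 1 mouse gave 26 (without Ctrl4) to 36 (without Ctrl1) for AL against Ctrl and 36 to 41 for AL against LS in the first run, 0 for LS against Ctrl, 0 (without AL9) to 6 (without LS2) for AL against Ctrl in the second run, 0 (without AL9) to 16 (without AL8) for the difference, and, between the runs, 4 (without Ctrl5) to 15 (without Ctrl1) for Ctrl and 11 (without AL9) to 28 (without Ctrl1) for AL. No called member reversed its sign. Same-numbered mice of the first run did not deviate together (12 pairs, r from -0.09 to 0.21, 2 over 0.1; 2 of 12 mice correlated best with their own number). With the replicate number as a block in the 12 mice numbered 1 to 4, 31 members were called for AL against Ctrl, 37 for AL against LS and 0 for LS against Ctrl; without the block, the same mice gave 32, 38 and 0, an alternative chosen after seeing the data. Counts summed over the entries of one symbol, also added then, moved no count by over 1.5 times. On the log2 CPM scale, 6 of the 14 gene-and-group combinations flagged for an outlying mouse remained. The second run, with totals of at most 11794615 counts, limits the precision for genes near the floor of 3 counts.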
